A study of Mus musculus with 4 samples.

Results

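Immediate early genes are switched on within minutes of a stimulus without new protein synthesis, and many of their products then limit the same response. The 10 genes followed here were Nr4a1, Nr4a2, Nr4a3, Klf2, Klf4, Klf6, Btg2, Ier2, Dusp1 and Zfp36, taken by symbol from a list, and all 10 were found among the 32285 features measured. Nr4a1, Nr4a2 and Nr4a3 encode orphan nuclear receptors that work without a known natural ligand. Klf2, Klf4 and Klf6 encode Krüppel-like zinc finger factors, of which Klf2 and Klf4 are best known as endothelial factors that respond to blood flow, and Klf6 as a factor induced in injured tissue. The remaining 4 damp or follow signalling. Dusp1 encodes a phosphatase that switches off MAP kinases, Zfp36 a protein that binds AU-rich messages and promotes their decay, Btg2 an antiproliferative protein that recruits an mRNA deadenylase, and Ier2 a nuclear protein induced by growth factors.

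RNA was captured on Visium arrays, in which each barcoded spot covers a small area of tissue that can hold several cells, from heart sections of ICR mice. Cryoinjury was made at postnatal day 1 by holding a cold probe to the left ventricular apex for 5 seconds. Hearts were taken 1, 4, 7 and 14 days later, called d1, d4, d7 and d14 (postnatal days 2, 5, 8 and 15), in a study of Egr1 and cardiac repair. All 4 groups were cryoinjured, none is labelled as uninjured, and each day is 1 section of 10 µm. Day after injury, age and animal therefore cannot be told apart, no test between days was possible, and every interval below is a 95% interval of counting error only. The sections also differed in sex-linked genes. Eif2s3y, a Y-linked gene, had 460 UMIs at d7 and 0 at d1, d4 and d14, while Xist had 1 UMI at d7 and between 158 and 341 in the other sections, so that sex and day cannot be told apart at d7 either. Levels are UMIs of a gene per 1e6 UMIs of a section without haemoglobin and mitochondrially encoded genes (CPM), from spots with 500 or more UMIs. In the order of days there were 445, 662, 774 and 1175 such spots, with a median of 7810, 7998, 8028 and 3770 UMIs per spot. Because a count is not divided by transcript length, levels are compared between sections for 1 gene and not between genes.

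The labelled tissue was checked on its markers. The 12 cardiomyocyte markers were all detected in every section and summed to between 69336 and 102508 CPM. Other cell types varied more between sections. The summed neutrophil markers were at 255 CPM at d1 and between 23.3 and 62.5 CPM later, the macrophage markers were between 391 and 490 CPM up to d7 and at 933 CPM at d14, and the fibroblast and matrix markers were at 4434 CPM at d1 and between 8134 and 10296 CPM later. Atrial markers summed to 6907 CPM at d4 and to between 563 and 2586 CPM in the other sections. Most of each sum was Nppa alone (6751 CPM at d4), and the list did not move together. Myl4 and Dkk3 were also highest at d4, whereas Myl7 (45.6 CPM at d1, 12.8 CPM at d4) and Bmp10 were highest at d1. Sln was under 1 CPM throughout. In such bulk-like sums, fewer cells of a type and less RNA per cell cannot be told apart.

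The promoters are shown for 4 genes, because Nr4a1, Klf2 and Btg2 were called different between days most often among the 10 and Dusp1 holds a complete cyclic AMP response element. Each line is the stretch from 250 to 51 bases before the RefSeq start site, 5′ to 3′ in the direction of the gene, on build GRCm38.p6. The stretches are chr15:101266596-101266795 (plus strand) for Nr4a1, chr8:72318812-72319011 (plus strand) for Klf2, chr1:134079206-134079405 (minus strand) for Btg2 and chr17:26508523-26508722 (minus strand) for Dusp1, and 0 annotated exons of GENCODE vM21 overlap any of them. For Nr4a1 and Dusp1 the stretch lies within a longer annotated model of the same gene. Capitals mark the EGR motif GCGNGGGCG on either strand and the palindromic cyclic AMP response element (CRE) TGACGTCA.
Nr4a1: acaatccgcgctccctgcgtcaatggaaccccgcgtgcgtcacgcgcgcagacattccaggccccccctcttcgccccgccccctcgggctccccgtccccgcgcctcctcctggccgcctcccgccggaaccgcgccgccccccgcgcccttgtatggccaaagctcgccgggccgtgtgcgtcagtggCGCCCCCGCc
Klf2: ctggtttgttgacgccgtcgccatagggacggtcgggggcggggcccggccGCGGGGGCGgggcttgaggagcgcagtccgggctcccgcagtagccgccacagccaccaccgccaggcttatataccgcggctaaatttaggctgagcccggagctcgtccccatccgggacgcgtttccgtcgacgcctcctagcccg
Btg2: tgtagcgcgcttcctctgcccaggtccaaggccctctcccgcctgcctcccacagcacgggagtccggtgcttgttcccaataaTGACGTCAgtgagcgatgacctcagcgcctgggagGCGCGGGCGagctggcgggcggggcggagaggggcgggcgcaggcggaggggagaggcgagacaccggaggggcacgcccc
Dusp1: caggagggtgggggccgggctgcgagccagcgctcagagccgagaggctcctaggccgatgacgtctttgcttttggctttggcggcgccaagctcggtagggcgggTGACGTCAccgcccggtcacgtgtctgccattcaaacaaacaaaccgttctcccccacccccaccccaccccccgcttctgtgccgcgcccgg

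The EGR motif, the letters recognised by Egr1 and its relatives, was searched on both strands of the 300 bases from 250 before to 50 after the start site. It was present in 6 of the 9 members with a RefSeq promoter, Nr4a1, Nr4a2, Klf2, Klf4, Btg2 and Zfp36. Counted from the start site to the first base of the match, it began at -60 in Nr4a1, -199 in Klf2, -131 in Btg2 and -105 in Zfp36. The motif was in 5.55% of all 32851 mouse promoters of the same length and in 16.6% of the 9690 with a GC content of at least 60%, and these 9 members all had a GC content above 60%. The complete CRE was found in Btg2 at -166 and in Dusp1 at -143, against 1.79% of all promoters and 3.03% of the GC-rich ones. The short site TGACG, which overlaps the complete element, was present in 7 of the 9, with 4 matches each in Nr4a1, Nr4a2 and Nr4a3, against 20.8% of all promoters and 31.6% of the GC-rich ones. The GC box GGGCGG was in all 9, and 80.6% of GC-rich promoters had it. A CArG box, the binding motif of serum response factor, was found in Zfp36, against 1.63% of all promoters and 1.07% of the GC-rich ones. The AP-1 motif TGANTCA was in 0 of the 9, against 7.81% of all promoters and 3.35% of the GC-rich ones. These are matches of letters only, and Ier2 had no entry.

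The clearest pattern among the 10 was in the receptor Nr4a1, which was high in a single section. Nr4a1 (chromosome 15, 101254269 to 101274795, plus strand, GRCm38) stood at 8.37 CPM at d1 (27 UMIs), 19.2 CPM at d4 (112 UMIs), 109 CPM at d7 (608 UMIs) and 17.9 CPM at d14 (77 UMIs). The d7 section lay far above the other sections, d4 and d14 did not differ beyond counting error (ratio 1.07, 0.794 to 1.45), and d1 was lowest. The ratio of d7 to d1 was 13.0 (8.87 to 19.95), that of d7 to d4 was 5.70 (4.65 to 7.04), and d14 was 6.10-fold below d7 (4.81 to 7.84). With each spot weighted equally instead of by its UMIs, the ratio of d7 to d1 was 8.61.

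The rule of size called a gene higher or lower when its interval excluded 1, its ratio was 2 or more (0.5 or less for lower) and either section reached 20 CPM. Against d4, d7 had 1 higher member of the 8 that reached the level, Nr4a1, where 0.723% of the 7196 genes tested were higher and 1.51% were lower, and Nr4a1 had the eighth largest ratio of the 52 higher genes. From d7 to d14, 1 of 8 members was lower, again Nr4a1, where 3.51% of 6864 genes were lower and 5.04% were higher. These 2 comparisons share the d7 section, and every call of Nr4a1 between days rests on it. Without d7, the ratios of d4 and d14 to d1 were 2.29 (1.49 to 3.62) and 2.14 (1.36 to 3.45), with both levels under 20 CPM. The d7 section also had the largest share of mitochondrially encoded UMIs, 11.6% against 5.17% to 8.54%, whose part in the result was not tested. The 10 skeletal muscle markers did not move together. Their sum, mostly Acta1, was 140, 303, 185 and 313 CPM in the order of days, so d7 was not highest. A UMI of Myh3, Myh8, Mylpf or Tnnt3 was in 44 of 774 spots at d7. It was in 9 of 445 at d1, 23 of 662 at d4 and 15 of 1175 at d14. Over 7 other ways of counting, which included leaving those spots out, the ratio of d7 to d4 ran from 5.28 to 6.60.

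**Figure D1:**
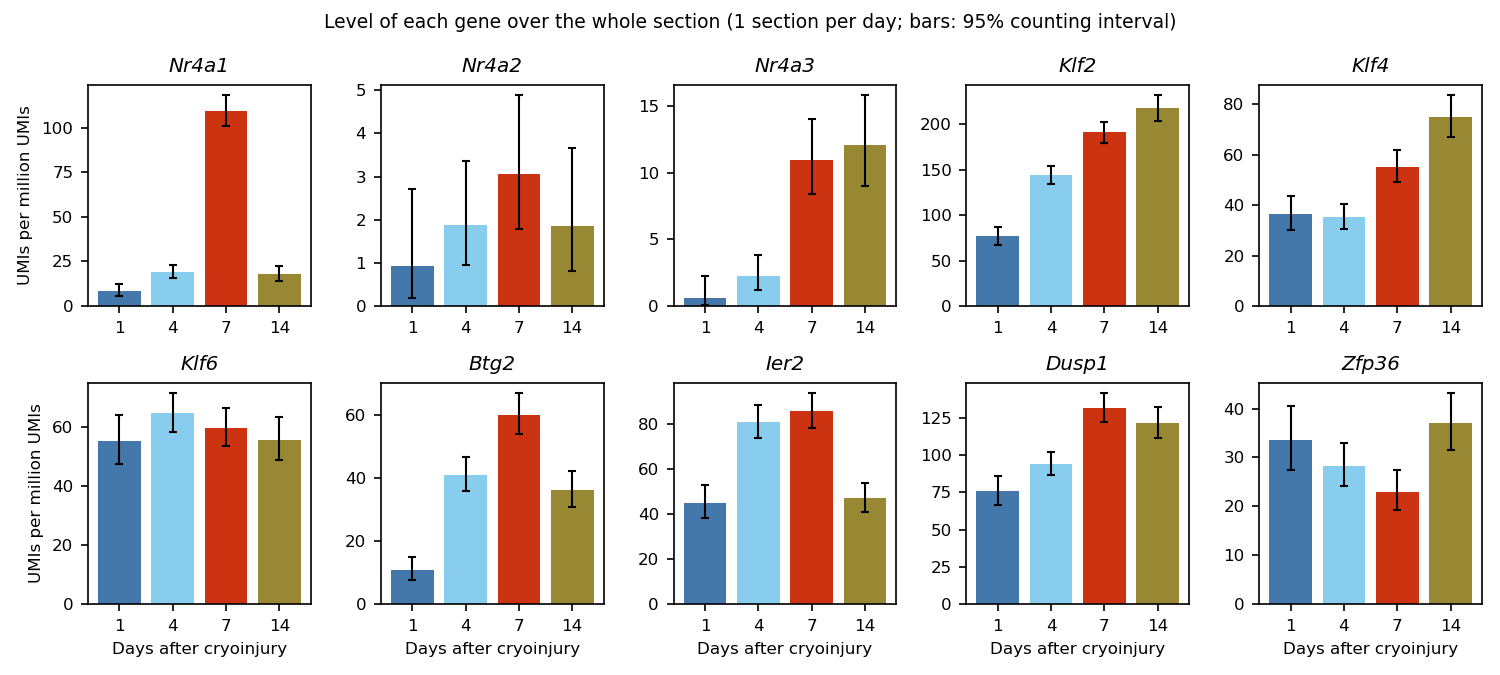
Level of each of the 10 genes in the 4 sections, in UMIs per 1e6 UMIs on an axis that starts at 0 and differs between panels, with bars for the 95% counting interval of 1 section. Nr4a1 stands at 109 in the d7 section and at or below 19.2 in the others, Klf2 is higher in each later section, and Klf6 lies between 55.2 and 64.7 throughout.

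Nr4a1 was spread over the d7 section and was not gathered in a few spots. There, 410 of 774 spots held at least 1 UMI (53.0%, 49.4% to 56.5%, exact binomial interval), 39 spots held 3 or more, and the highest count in a spot was 6. In the other sections 6.07% of spots at d1, 15.3% at d4 and 6.38% at d14 had a UMI. After each spot was thinned to 2500 UMIs, which left out 40, 3, 3 and 131 shallower spots in the order of days, the expected shares were 2.34%, 4.39%, 21.6% and 4.36%. The order of d7 above the rest was the same with and without thinning. The variance of Nr4a1 over d7 spots, after allowing for spot depth, was 1.07, where 1 is what counting error alone gives and the median of 2194 well-measured genes was 1.13.

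**Figure D2:**
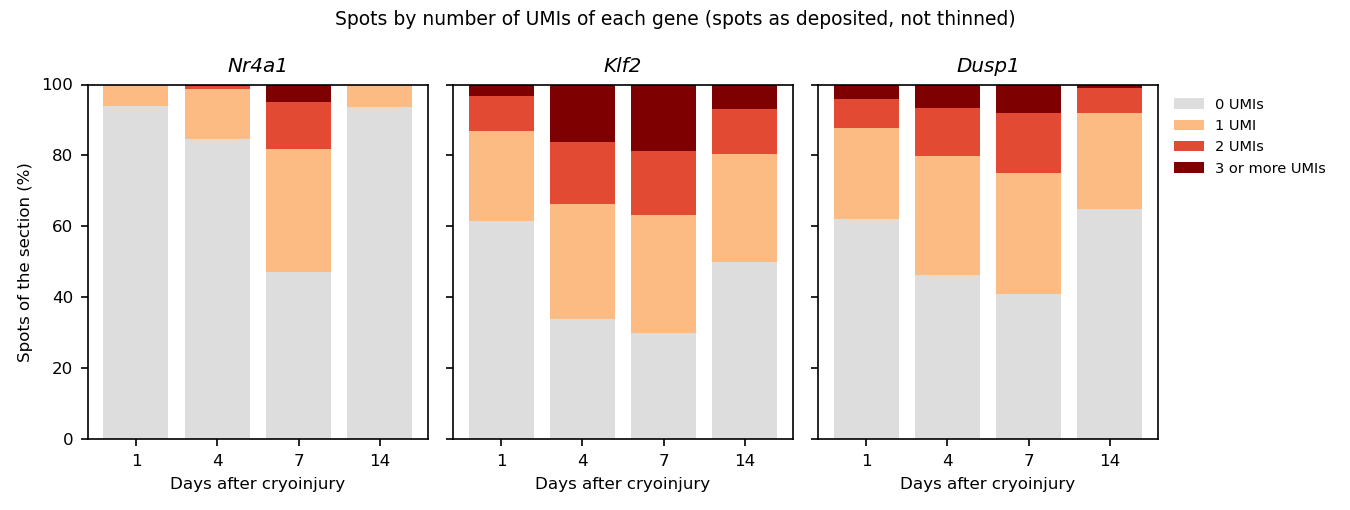
Share of spots of each section, in percent, that held 0, 1, 2 or 3 or more UMIs of Nr4a1, Klf2 or Dusp1, by days after cryoinjury, in spots as deposited. Spots with Nr4a1 make up 53.0% of the d7 section and between 6.07% and 15.3% of the others, and the spots at d14 were shallower than those of the other days.

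The other Nr4a receptors were sparse. Nr4a3 had 2 UMIs at d1 (0.620 CPM), 13 at d4 (2.22 CPM), 61 at d7 (11.0 CPM) and 52 at d14 (12.1 CPM), so that it was high at d7 and also at d14. The d7 to d4 ratio of Nr4a3 was 4.93 (2.68 to 9.77) and its d14 to d7 ratio was 1.10 (0.747 to 1.62), and it stayed under the 20 CPM level everywhere. Against the 2 UMIs of d1, the d7 ratio was 17.7 (4.68 to 149). Nr4a2 had 3, 11, 17 and 8 UMIs at d1, d4, d7 and d14 (0.930, 1.88, 3.05 and 1.86 CPM), and no neighbouring pair in its order of levels differed beyond counting error. Where Nr4a1 was 6.10-fold lower at d14 than at d7, the interval of Nr4a3 for the same pair did not overlap that of Nr4a1.

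Other immediate early genes gave a partly like pattern. Of 28 such genes on a list, 15 reached the level in d7 or d4, and 4 were higher at d7 with 0 lower. They were the AP-1 subunits Fos and Fosl2, the stress-induced factor Atf3 and the kinase Sik1. Over all genes tested, 0.723% were higher and 1.51% were lower. Atf3 was at 28.2 CPM at d7 and 7.87 CPM at d4 (ratio 3.58, 2.56 to 5.09), and Fos at 23.0 and 9.92 CPM (2.32, 1.69 to 3.22). Egr1 itself was at 15.2, 66.0, 70.4 and 12.5 CPM from d1 to d14, so that d4 and d7 were alike in Egr1, unlike in Nr4a1. From d7 to d14, of 16 that reached the level, Fos, Egr1, Atf3, Sik1 and Plk2 were lower, and Rhob and Errfi1 were higher. Over all genes tested, 3.51% were lower and 5.04% were higher. Over the 4 sections, the genes with levels most like those of Nr4a1 were Osr1, Atf3 and Ccn3, with root mean square differences of 0.40, 0.42 and 0.51 in log2 CPM around each gene's own mean, among 7360 genes. Osr1 was at 28.0 CPM at d7 and at 2.79 to 10.6 CPM elsewhere.

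Btg2 was lowest at d1 and higher in all 3 later sections. It had 10.9 CPM at d1 (35 UMIs), 41.1 CPM at d4 (240 UMIs), 60.2 CPM at d7 (335 UMIs) and 36.2 CPM at d14 (156 UMIs). The d7 section was above the d4 and d14 sections, which did not differ beyond counting error (ratio 1.13, 0.922 to 1.39). The ratio of d4 to d1 was 3.78 (2.65 to 5.56), that of d7 to d1 5.54 (3.91 to 8.09) and that of d14 to d1 3.34 (2.30 to 4.97). At d4, Btg2 was the only higher member of the 7 that reached the level, where 4.69% of 7276 genes were higher and 1.44% were lower. These ratios share the d1 section and are not separate observations. Among other genes of this kind, Btg3 was 2.99-fold lower at d14 than at d1 and Tob2 was 2.06-fold higher. They were the 2 genes past the rule of 10 that reached the level in the Btg, Tob, Zfp36 and deadenylase list. Over all genes tested, 7.32% were higher at d14 than at d1 and 6.07% were lower. The sections with the higher Btg2 had less of the summed neutrophil markers and more of the fibroblast and matrix markers than d1, whose part in the result was not tested.

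**Figure D3:**
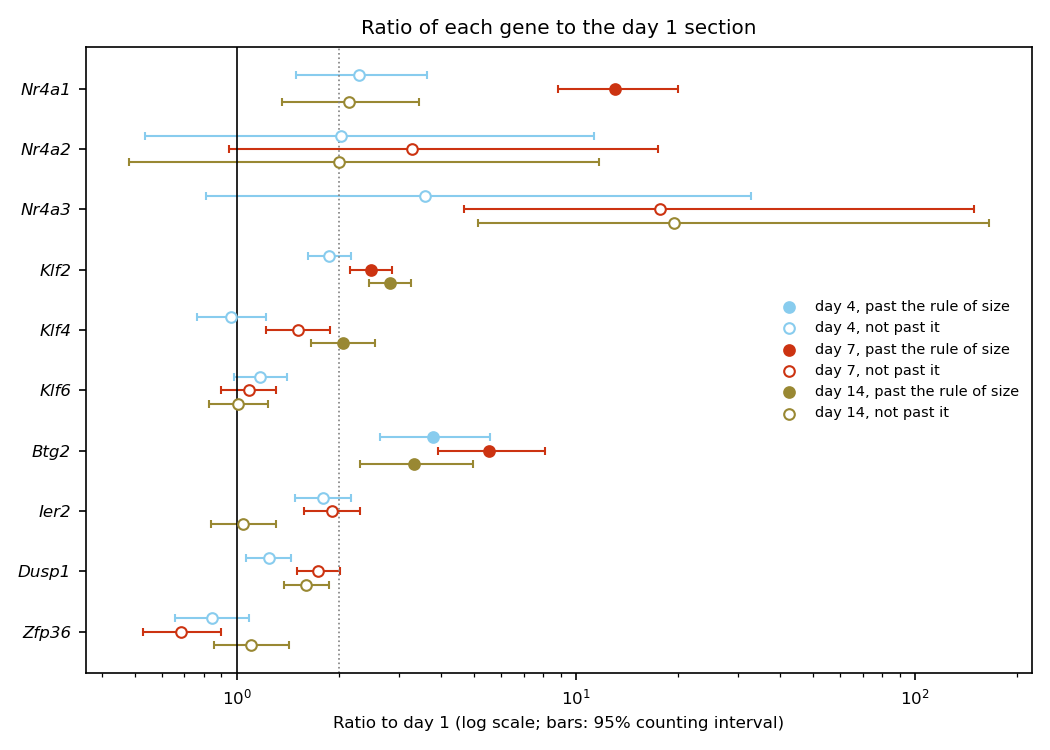
Ratio of each gene's level at d4, d7 and d14 to its level at d1, on a log axis, with 95% counting intervals; filled points pass the rule of size, the solid line marks equal levels and the dotted line a ratio of 2. The 7 filled points belong to Btg2 (all 3 days), Klf2 (d7 and d14), Nr4a1 (d7) and Klf4 (d14), and all 3 ratios share the same d1 section.

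Klf2 was higher in each later section than in the section before it. Its levels were 76.9 CPM at d1 (248 UMIs), 144 CPM at d4 (843 UMIs), 191 CPM at d7 (1064 UMIs) and 218 CPM at d14 (937 UMIs). Each neighbouring pair differed beyond counting error, the smallest step being d14 to d7 (ratio 1.14, 1.04 to 1.24). Its ratio to d1 was 1.87 (1.63 to 2.17) at d4, which did not reach 2, 2.48 (2.16 to 2.86) at d7 and 2.83 (2.46 to 3.27) at d14. At d7, 3 of the 8 members that reached the level were higher than at d1, Nr4a1, Klf2 and Btg2, where 3.45% of 6870 genes were higher and 2.85% were lower. The 12 endothelial markers summed to 914, 1255, 1184 and 1366 CPM in the order of days, so they too were lowest at d1. Klf2 UMIs per 100 endothelial marker UMIs came to 8.42, 11.5, 16.1 and 15.9, higher at d7 and d14 than at d1. After thinning, spots with Klf2 made up 16.7%, 29.1%, 33.7% and 37.4% of the sections.

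Klf4 followed only at the later days. It stood at 36.6 CPM at d1, 35.2 CPM at d4, 55.3 CPM at d7 and 75.0 CPM at d14, with 118, 206, 308 and 323 UMIs. The d1 and d4 sections did not differ beyond counting error, and d7 and then d14 lay above them. The ratio of d14 to d1 was 2.05 (1.66 to 2.55) and just passed the rule. It no longer did with the UMIs of all genes as total, where it was 1.97, or without the 10% of spots richest in injury markers, where it was 1.88. At d14, 3 of the 7 members that reached the level were higher than at d1, Klf2, Klf4 and Btg2, where 7.32% of 6982 genes were higher and 6.07% were lower. Klf4 UMIs per 100 endothelial marker UMIs were 4.00, 2.81, 4.67 and 5.49 in the order of days.

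Genes known as endothelial targets of Klf2 and Klf4 did not move as a block. Of 9 on the list, all reached the level in d14 or d1, and Thbd, Pi16 and Sema3g were higher at d14 while Slco2a1 was lower. Over all genes tested, 7.32% were higher at d14 than at d1 and 6.07% were lower, which also stands beside the other Klf genes below. Thbd, which encodes thrombomodulin, was at 19.5 CPM at d1 and 87.3 CPM at d14 (ratio 4.47, 3.42 to 5.94). Pi16, which fibroblasts also express, was at 3.41 and 122 CPM. Nos3, the endothelial nitric oxide synthase, was at 26.1, 41.9, 30.0 and 31.4 CPM and was past the rule at no day. The median log2 ratio of the 9 for d14 against d1 was 0.29, against -0.06 over all genes tested. In the rest of the Klf family, the glucocorticoid-responsive Klf9 was 2.44-fold higher at d14 than at d1 and Klf11 was 2.25-fold lower, of 5 that reached the level. Klf15, another glucocorticoid-responsive member, was at 51.2 CPM at d1, 8.89 CPM at d4, 14.5 CPM at d7 and 65.0 CPM at d14.

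Klf6 and Zfp36 differed little in section-wide level, by less than 2-fold between any pair of days. Klf6 was at 55.2, 64.7, 59.8 and 55.8 CPM (178, 378, 333 and 240 UMIs) from d1 to d14, and no neighbours in its order of levels differed beyond counting error. Zfp36 was at 33.5, 28.2, 23.0 and 36.9 CPM (108, 165, 128 and 159 UMIs). Neighbours in its order did not differ either, but d14 was 1.61-fold above d7 (1.27 to 2.04). The d7 section was also below d1 (ratio 0.686, 0.527 to 0.895), and neither ratio reached the rule. Of 10 messages whose decay Zfp36 is known to promote, Ccl2 alone reached the level, at 74.7 CPM at d1 and between 2.56 and 12.4 CPM later, and Tnf, Il6 and Il10 had 2 UMIs or fewer in each section.

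Ier2 and Dusp1 lay in between, with no comparison past the rule. Ier2 was at 45.0 CPM at d1, 80.6 CPM at d4, 85.5 CPM at d7 and 46.9 CPM at d14. It was thus high in the middle sections and low in the outer ones, with ratios of 1.79 (1.48 to 2.17) and 1.90 (1.58 to 2.31) for d4 and d7 against d1 and 0.549 (0.463 to 0.649) for d14 against d7. Weighting spots equally brought the d7 to d1 ratio of Ier2 to 2.01, past the rule. Dusp1 was at 76.0, 94.2, 132 and 122 CPM from d1 to d14, and its ratio to d1 was 1.73 (1.50 to 2.01) at d7 and 1.60 (1.37 to 1.87) at d14. Of the other dual-specificity phosphatases, Dusp8 was higher than at d1 in all 3 later sections, with 11.2 CPM at d1, 28.9 CPM at d4, 47.0 CPM at d7 and 35.5 CPM at d14, and Dusp7 was higher at d14 (54.8 against 19.2 CPM).

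The median log2 ratio of the 10 members was 0.87 at d4, 1.12 at d7 and 1.02 at d14 against d1, where the medians over all genes with 10 or more UMIs in the pair of sections were 0.21, -0.003 and -0.04. It was 0.52 for d7 against d4 and -0.11 for d14 against d7, beside -0.23 and -0.04 over those genes. The sparse Nr4a genes carry part of the medians against d1. Over the 7, 8 and 7 members that reached the level at d4, d7 and d14, they were 0.31, 0.86 and 0.68, beside 0.17, -0.03 and -0.06 over all genes that did. Under a scaling that sets the middle of all genes near 0 (TMM), the median of all genes at the level for d7 against d4 was 0.02 in place of -0.20, and the higher share of all calls was 61.9% against 32.3% here. For d4 against d1, the higher share was 57.1% under TMM and 76.5% here, and for d7 against d1 it was 44.0% with UMIs of all genes and 54.7% here.

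Within a section, the level was compared between spots rich in a cell type's markers, taken as the 10% of spots where the list's share of UMIs was largest, and the other spots. The spots of 1 section are not replicates, so this describes 4 hearts. Spots rich in macrophage and neutrophil markers and spots rich in fibroblast and matrix markers were in part the same spots, namely 30 of 44, 39 of 66, 37 of 77 and 54 of 118 in the order of days. Mural marker-rich spots were shared with the fibroblast and matrix ones in 14 of 44, 43 of 66, 10 of 77 and 22 of 118. With the macrophage and neutrophil ones, they shared 11, 36, 8 and 13. Results for these lists are therefore not independent of each other, above all at d4. How far the rich spots differ in the markers themselves limits what a ratio can show. The median marker share of the rich spots was 3.65 to 4.74 times that of the others for fibroblasts and matrix and 4.04 to 12.8 times for macrophages and neutrophils. It was 2.19 to 3.13 times for mural cells, 1.83 to 2.16 times for endothelium and only 1.15 to 1.18 times for cardiomyocytes. A ratio of 2 is thus hard to reach for an endothelial gene and out of reach for a cardiomyocyte gene. The spots were chosen on these same counts, so each difference includes counting error of the markers. How large that part is was not tested, and the true difference may be smaller, above all where markers are few.

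At d1, 3 of 8 members with at least 20 UMIs were higher in the fibroblast and matrix marker-rich spots, Klf6, Dusp1 and Zfp36, where 9.23% of all genes measured were higher. Klf6 was at 135 CPM there and 47.3 CPM in the other spots (ratio 2.86, 1.95 to 4.11). Zfp36 was at 79.9 against 28.9 CPM (2.76, 1.66 to 4.42) and Dusp1 at 142 against 69.5 CPM (2.05, 1.43 to 2.88). Klf6 and Zfp36, whose section-wide levels differed less than 2-fold between days, were thus unevenly spread at d1. In the macrophage and neutrophil marker-rich spots of d1, Klf6 and Zfp36 were also higher (2.71, 1.82 to 3.93, and 2.89, 1.74 to 4.63), 2 of 8 members where 7.91% of genes were. With the top 20% of spots by these markers, Klf6 was still past the rule (2.19) and Zfp36 just missed it (1.97, 1.26 to 3.03). Egr1 was at 69.4 CPM in the fibroblast and matrix marker-rich spots of d1 and at 9.88 CPM in the rest. In the narrowest choice, the top 5% of spots by fibroblast and matrix markers, Klf6 alone of these 3 was past the rule (2.48).

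At the later days none of these 3 genes passed the rule, although some ratios stayed above 1 beyond counting error. In the fibroblast and matrix marker-rich spots, Klf6 had ratios of 1.33 (0.991 to 1.75), 1.25 (0.848 to 1.78) and 1.20 (0.777 to 1.78) from d4 to d14. Zfp36 had 1.92 (1.29 to 2.80) at d4, close to the rule, and 0.830 (0.370 to 1.63) at d7, and Dusp1 lay between 0.795 and 1.03 from d4 to d14. In the macrophage and neutrophil marker-rich spots of d7, Klf6 had 1.62 (1.17 to 2.20). No member passed the rule in the fibroblast and matrix marker-rich spots at d4 or d7, where 10.7% and 11.8% of genes were higher, or in the macrophage and neutrophil marker-rich spots of the same days, where 8.22% and 5.95% were. Whether d1 differed from the later days in this respect was not tested.

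**Figure D4:**
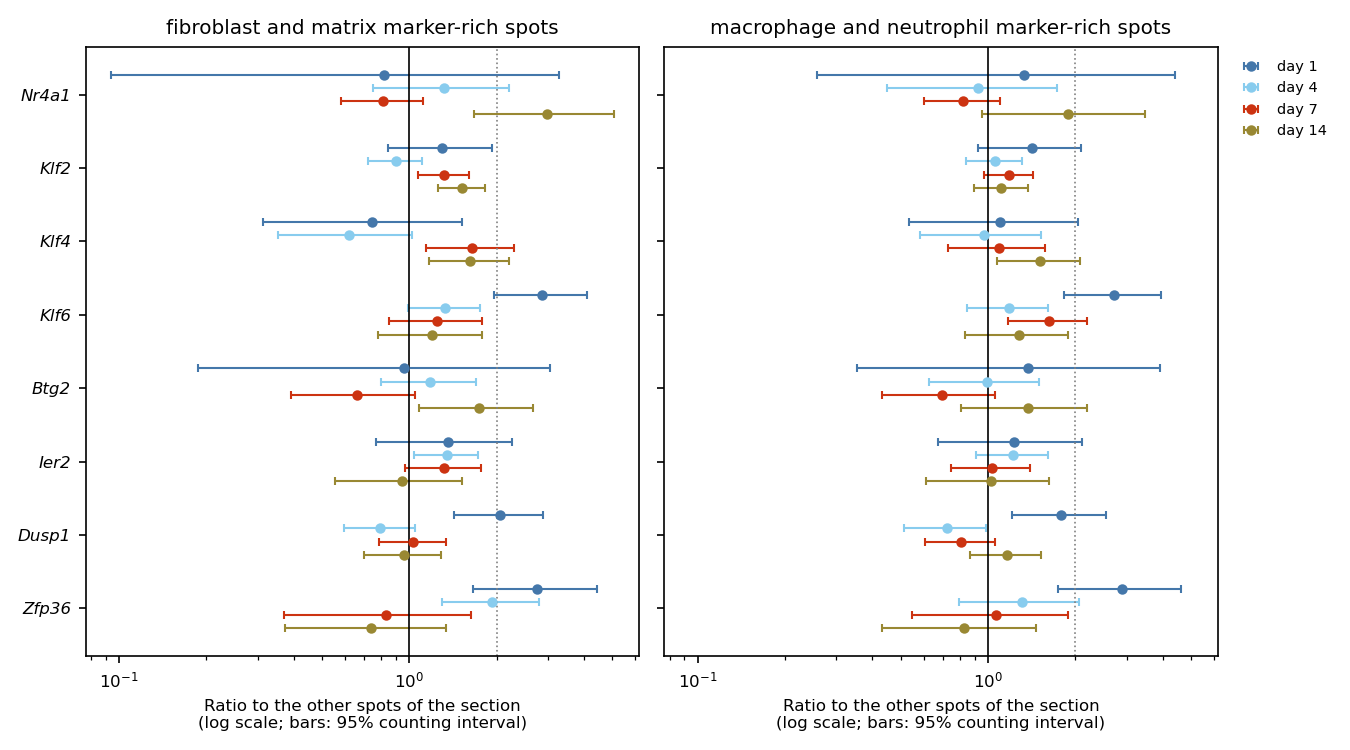
Ratio of the level in marker-rich spots to that in the other spots of the same section, on a log axis, for 8 members and 4 sections, with 95% counting intervals; the solid line marks equal levels and the dotted line a ratio of 2. The d1 points of Klf6 and Zfp36 lie above 2 in both panels, and the d7 point of Nr4a1 lies at 0.814 on the left and 0.823 on the right.

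In d7, the section in which it was highest, Nr4a1 differed beyond counting error between rich and other spots for none of the 5 marker lists. It was at 90.3 CPM in the fibroblast and matrix marker-rich spots and 111 CPM in the rest (0.814, 0.580 to 1.11), at 91.4 against 111 CPM for macrophages and neutrophils (0.823, 0.602 to 1.10), at 118 against 108 CPM for endothelium (1.09, 0.819 to 1.43) and at 135 against 106 CPM for cardiomyocytes (1.28, 0.994 to 1.62), and for mural cells the ratio was 0.901 (0.658 to 1.21). For cardiomyocytes, and in part for endothelium, the spots differed too little in the markers for these ratios to show whether Nr4a1 lay in those cells. At d14, where few spots held it, Nr4a1 was at 44.4 CPM in the fibroblast and matrix marker-rich spots (19 UMIs) and at 15.0 CPM in the rest (58 UMIs), a ratio of 2.97 (1.67 to 5.06). It was the only one of 9 members past the rule there, where 10.9% of genes were higher, and with the top 5% of spots its ratio was 2.21 and its interval included 1. Nr4a3 was higher in the macrophage and neutrophil marker-rich spots of d14, on 11 UMIs against 41 (2.50, 1.16 to 4.95), where 6.62% of genes were higher. Its interval included 1 with the top 5% of spots (1.55) and with the top 20% (1.70).

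Klf2 and Klf4 passed the rule in the spots richest in endothelial markers in no section, and most of their ratios there lay slightly above 1. The d1 ratio of Klf2 in these spots was 1.40 (0.909 to 2.08), the d4 ratio 1.17 (0.901 to 1.49), the d7 ratio 1.15 (0.929 to 1.40) and the d14 ratio 1.34 (1.08 to 1.63). The interval of Klf2 excluded 1 at d14. In the order of days, Klf4 had 1.02 (0.475 to 1.95), 1.59 (0.985 to 2.47), 1.41 (0.975 to 1.999) and 1.23 (0.842 to 1.75). Endothelial markers were themselves rather evenly spread, with a median share of 0.207% of UMIs in the rich spots and 0.109% in the others at d7. That difference includes counting error of the markers, so ratios in these spots say little about whether a gene lay in endothelium. In the fibroblast and matrix marker-rich spots, Klf2 had ratios of 1.298 (0.843 to 1.93), 0.896 (0.717 to 1.11), 1.32 (1.07 to 1.60) and 1.51 (1.25 to 1.82) in the order of days. Klf4 had 0.741 (0.312 to 1.51), 0.620 (0.353 to 1.02), 1.64 (1.14 to 2.29) and 1.62 (1.17 to 2.20). For both genes the d7 and d14 ratios lay above 1 beyond counting error and below the rule of 2, and at d1 and d4 the intervals included 1. Over 34 pairs of a member and a section, 0 were higher in endothelial marker-rich spots, where 3.37%, 1.36%, 1.11% and 1.94% of genes were in the order of days. Still, 4 pairs had an interval above 1 and 0 below, among them Klf6 at d1 (1.88, 1.19 to 2.86) and d4 (1.67, 1.19 to 2.29). None were higher in mural marker-rich spots, where 4.29%, 9.5%, 1.8% and 2.71% of genes were. There, 6 pairs had an interval above 1, among them Klf6 at d4 (1.59, 1.19 to 2.09), and 1 below. Of the 6, 3 were at d4, where 43 of the 66 mural marker-rich spots were also fibroblast and matrix marker-rich. Btg2 at d14 was lower in the cardiomyocyte marker-rich spots, on 7 UMIs against 149 (17.5 against 38.2 CPM, ratio 0.458, 0.181 to 0.967). There, 3.89% of genes were lower, and the marker share was only 1.18 times that of the other spots. It was the only pair of 34 lower in cardiomyocyte marker-rich spots.

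Across the spots of a section, correlations between the 10 genes were mostly close to 0, where sparse counts leave little room for higher values. The 45 pairs had a median Pearson r between 0.003 and 0.024 in the 4 sections, computed on counts corrected for spot depth, and 7 of 180 values were above 0.1. Among those above 0.1, 0.238 and 0.147 at d1 were pairs of Nr4a3, which had 2 UMIs there. The spots share a section and its depth, and these values are descriptions. After allowing for depth, the variance of the members over d7 spots ran from 0.988 (Nr4a3) to 1.38 (Klf2), where counting error alone gives 1. Low values of r therefore cannot show whether the genes share a pattern. Klf2 with Klf4 gave -0.027, 0.141, 0.159 and -0.017 in the order of days, and the d7 value was 0.033 by Spearman's rho. Klf6 with Dusp1 gave 0.171 at d1 (rho 0.155) and between -0.007 and 0.017 later. Averaged over the sections, the genes nearest to Klf6 among 2194 were Tmsb4x, Vim and Fn1 (r of 0.126, 0.124 and 0.117), nearest to Klf2 were Crip1, Dpt and Ltbp4 (0.123, 0.098 and 0.097), and nearest to Klf4 were Dcn, Lum and Crip1 (0.091, 0.086 and 0.078).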

How the data were processed

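The deposited files held whole-number UMI counts of each gene in each spot. Per the file headers they came from Space Ranger 1.3.0. The submitters' processing notes name the build mm10, and also name Seurat 4.1.1 without its role. How spots were selected is not given in the sources used here, and positions and images were not used. Feature and barcode files held names only. The 1328 barcodes are array positions, of which 1000 occurred in 2 or more sections and 247 in all 4, so shared barcodes are not shared cells.

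Spots with at least 500 UMIs were kept, and counts were summed per section. The total that divides them leaves out 8 genes of haemoglobin and 13 encoded in mitochondria. Ratios carry an exact conditional binomial (Clopper-Pearson) 95% interval, and levels an exact Poisson interval. Spots are not replicates, and with 1 section per day there is no p-value. The rule of size was applied to all genes and checked on counts simulated with counting error only. That check holds no variation between animals or sections and cannot show how the rule behaves under it. The members and lists were chosen with earlier results of these data known. The text names all 10 members, genes of other lists past the rule of size or among the 4 with the most UMIs, and the 3 most alike genes of a member, and examples among them were picked after their values were seen. Promoters came from RefSeq (GRCm38.p6), with 9 of 10 members matched, and gene positions from GENCODE vM21. Alternatives were other totals, TMM scaling (edgeR 4.0.16, R 4.3.3, used for nothing else), other spot and level minimums, equal weight per spot with the pooled interval rescaled, spots left out and other sizes of the marker-rich set. Leaving out spots with a skeletal muscle UMI was added after seeing the data. Computation used Python 3.11.15 with numpy 2.4.6, scipy 1.17.1 and pandas 2.3.3.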

Additional observations from a re-analysis of the deposited data

Results flagged for a closer look

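Dusp1 lay on opposite sides of equality in the macrophage and neutrophil marker-rich spots of d1 and d4. At d1 it was 1.78-fold higher there than in the other spots (1.21 to 2.56; 127 against 71.2 CPM), and at d4 its ratio was 0.720 (0.515 to 0.984; 69.9 against 97.1 CPM). Neither ratio passed the rule of 2, and the difference between the sections was not tested. Of 45 pairs of a member and a marker list looked at over the sections, this was the only 1 with intervals on both sides of 1.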

How the results depend on the processing

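No paired analysis was possible because each day has 1 section and the labels give no replicate numbers. Of 350 member ratios recomputed under 7 alternatives, 346 moved by less than their counting interval and 4 moved beyond it. Under TMM scaling for d7 against d4, these were Klf2 (1.53), Ier2 (1.23) and Dusp1 (1.62). With equal weight per spot, Nr4a1 for d7 against d1 (8.61) was the other. Some settings could hardly move a ratio. Taking all spots used 448, 665, 776 and 1178 in place of 445, 662, 774 and 1175, in the order of days. The 346 are therefore no measure of how firm the ratios are. Of the ratios past the rule of size, 0 reversed. Reversal was counted for those alone, and some other ratios crossed 1. With equal weight per spot, Klf4 for d4 against d1 went from 0.963 to 1.13. Zfp36 for d14 against d1 went from 1.10 to 0.911 in the same setting. Equal weight per spot also gave 1.38 for Nr4a1 at d14 against d1, against 2.14 here. With a level minimum of 10 CPM or none, the members past the rule became 2 in place of 1 for d4 against d1 (Nr4a1 added), 4 in place of 3 for d7 against d1 (Nr4a3 added), 5 in place of 3 for d14 against d1 (Nr4a1 and Nr4a3 added) and 2 in place of 1 for d7 against d4 (Nr4a3 added), since fewer genes are left out. Over all genes, calls for d4 against d1 went from 341 higher and 105 lower to 599 and 177 at 10 CPM and 1100 and 378 with no minimum, and for d7 against d4 from 52 and 109 to 82 and 250 and to 221 and 704. In marker-rich spots, the top 5% gave 2 higher pairs in place of 0 for endothelium (Klf6 at d1 and d4), 2 in place of 4 for fibroblasts and matrix (Klf6 at d1 and Klf4 at d14, without Dusp1 and Zfp36 at d1 and Nr4a1 at d14) and 1 in place of 0 for mural cells. The top 20% gave 1 in place of 3 for macrophages and neutrophils (Klf6 at d1, without Zfp36 at d1 and Nr4a3 at d14) and 1 in place of 0 for mural cells, and UMIs of all genes gave 1 in place of 0 for endothelium. Members whose share of spots was highest at d7 numbered 7 unthinned and 4 thinned, and pairs above 0.1 across spots 4 by Spearman's rho and 7 by Pearson's r. Except where stated, the cause was not tested. Depth limited Nr4a2 and Nr4a3, where 3 counts amount to between 0.513 and 0.930 CPM.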

Other observations

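Glucocorticoid-responsive genes, which include direct targets of the hormone receptor, were mostly lower at d4 and d7 than at d1. Of 8 that reached the level, 6 were lower at d4 than at d1 and 0 were higher, and 5 were lower at d7. Over all genes tested, 1.44% were lower at d4 than at d1 and 2.85% at d7. Fkbp5, a chaperone and textbook hormone target, was at 71.6 CPM at d1, 17.4 CPM at d4, 6.29 CPM at d7 and 54.4 CPM at d14. Tsc22d3 was at 154, 93.2, 92.3 and 429 CPM in the same order. From d7 to d14, 5 of 7 were higher, Fkbp5, Tsc22d3, Mt2, Errfi1 and Ddit4, and 0 were lower, where 5.04% of all genes were higher. Errfi1 is also on the list of other immediate early genes and was counted there too. Against d1, the list was mixed at d14, with 3 of 8 higher and 2 lower. Over all genes tested, 7.32% were higher and 6.07% were lower. Of the members that the hormone can also induce, Zfp36 was at 33.5, 28.2, 23.0 and 36.9 CPM, with no ratio past the rule. Its d14 and d1 levels did not differ beyond counting error (1.10, 0.858 to 1.42). Nor did its d4 and d7 levels (1.23, 0.969 to 1.56). Dusp1 had its largest value at d7 (132 CPM), not beyond counting error above d14 (1.08, 0.967 to 1.21).

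Myc, an immediate early growth gene, went the other way from Nr4a1, Btg2 and Klf2. It was at 31.6 CPM at d1, 12.5 CPM at d4, 9.34 CPM at d7 and 4.18 CPM at d14, lower than at d1 in all 3. Myc was the exception on its list. Of 13, 16 and 12 other immediate early genes that reached the level, 5, 6 and 4 were higher than at d1. Only Myc was lower each time. Over all genes tested, 4.69%, 3.45% and 7.32% were higher, and 1.44%, 2.85% and 6.07% were lower. Of 8 heat shock genes that reached the level, the chaperone Hsph1 at d14 (34.4 against 15.5 CPM) was the only 1 past the rule in the 3 comparisons with d1. At d14, 7.32% of all genes tested were higher than at d1.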
